A study of Homo sapiens with 4 samples.

Results

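The collagen genes were taken as all probesets of the array that carry exactly 1 gene symbol made of COL, a number, A and a number, with the brightest probeset kept where a gene had several. This gave 41 genes out of 22465 genes with a probeset of their own. The naming rule uses no array value beyond the choice of probeset, but the family was chosen with earlier results of these data known. Transcriptomes were measured in SUM159 and MDA-MB-231, established triple-negative breast cancer lines, on 4 arrays with 1 array for each line and state. Both lines stably carried a lentiviral plasmid that expresses the microRNA miR-100 when a tetracycline-type drug is added, and both had been selected with puromycin. The induced cells of each line received the drug for 1 week, and the control cells of the same line grew without it. SUM159 cells were kept in Ham's F12 medium with serum, hydrocortisone and insulin, and MDA-MB-231 cells in DMEM with serum, so line and medium cannot be told apart. No array of drug-treated cells without the construct was analysed here, so drug and microRNA cannot be told apart either. One line is called SUM149 in the series text but SUM159 in the labels of the samples, which were followed.

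Collagens are secreted or membrane-bound matrix proteins whose chains wind into a triple helix built on repeats of glycine followed by any pair of residues. Fibrillar collagens form the banded fibrils of connective tissue, network collagens such as type IV form the sheets of basement membranes, and FACIT collagens coat fibrils and link them to other matrix. Transmembrane collagens span the plasma membrane, and the microfibrillar type VI collagens form beaded filaments near cell surfaces. In breast tumours most fibrillar collagen is made by fibroblasts, while tumour cells can express basement membrane and pericellular types. miR-100 belongs to a family of microRNAs that lower their target transcripts through short seed matches. Its guide strand from RefSeq (GRCh38.p14, chr11:122152275-122152296, minus strand) is shown because it is the molecule that was induced, with the seed, bases 2 to 8, in capitals.
hsa-miR-100-5p: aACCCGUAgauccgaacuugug

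Type IV genes lie head to head, so that neighbouring genes are transcribed in opposite directions from a common promoter region. The 2 pairs with signal differed between the lines in opposite directions, and the stretch between their start sites is shown for that reason. Both are on the plus strand of GRCh38.p14 as given by RefSeq, and capitals mark GC boxes (GGGCGG) and CCAAT boxes (CCAAT) on either strand. The first covers all 126 bases between the starts of COL4A1 and COL4A2 (chr13:110307158-110307283), and the second the 250 bases before the start of COL4A5 (chrX:108439588-108439837), of the 379 between it and the nearest listed start of COL4A6.
COL4A1 and COL4A2: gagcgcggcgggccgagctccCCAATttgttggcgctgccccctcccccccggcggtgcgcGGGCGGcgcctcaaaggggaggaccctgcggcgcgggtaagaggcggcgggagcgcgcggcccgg
COL4A5 and COL4A6: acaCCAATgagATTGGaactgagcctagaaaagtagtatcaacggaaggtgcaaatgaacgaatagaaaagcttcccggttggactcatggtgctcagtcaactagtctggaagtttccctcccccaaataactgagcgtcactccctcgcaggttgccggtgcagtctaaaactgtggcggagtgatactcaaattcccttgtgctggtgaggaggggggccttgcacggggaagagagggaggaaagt
The first stretch is 80.2% G and C and holds 1 GC box and 1 CCAAT box, and the second is 51.2% G and C and holds 0 GC boxes and 2 CCAAT boxes. Neither holds the letters TATAAA. In windows from 250 bases before to 50 after the start, available for 30 of the 41 collagen genes, 57.1% of 42 windows hold a GC box, 31.0% a CCAAT box and 16.7% TATAAA on either strand. Across all 35116 windows the shares are 45.0%, 34.6% and 11.5%. These matches describe letters in a window and say nothing of factor binding in these cells.

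The MIR100 probeset had a log2 signal of 18.18 in induced and 6.56 in control SUM159 cells, and of 17.29 in induced and 8.11 in control MDA-MB-231 cells. Both arrays labelled induced thus carried the induced gene. Signals are the authors' log2 values, and a gene is called kept where its mean over the 4 arrays reached 4.035, the median over all probesets, which was the case for 14418 genes. As a check of the labelled lines, ESR1 and PGR, the oestrogen and progesterone receptor genes, lay below this cutoff on every array, between 2.98 and 3.68. The keratin genes KRT8 and KRT18 and the vimentin gene VIM lay at 10.31 or above, and the epithelial cadherin gene CDH1 lay below the cutoff. The epithelial genes EPCAM, KRT8, KRT18 and KRT19 were lower in SUM159 than in MDA-MB-231, with limma log2 differences of -1.43, -1.25, -1.28 and -4.67. The mesenchymal genes VIM, FN1 and CDH2 were higher in SUM159 (0.75, 3.77 and 8.47), and ZEB1 differed by -0.01. The tumour receptor gene ERBB2 had no probeset of its own. Of 6 fibroblast markers 4 were kept (PDGFRA, PDGFRB, THY1 and DCN), of 3 endothelial markers 0 and of 3 blood markers 1 (CD3E), with signals of at most 5.31. FAP, LUM, VWF, PTPRC and CD14 lay below the cutoff on all 4 arrays, while PECAM1 and CDH5 reached it on some. The mean log2 signal of the 6 fibroblast markers was 4.21 in induced and 4.34 in control SUM159 cells, against 3.95 in induced and 3.92 in control MDA-MB-231 cells. PDGFRA and DCN were higher in SUM159 by limma (adjusted p = 0.0244 and 0.0143), with MDA-MB-231 signals below the cutoff. Both were thus kept only through SUM159, so the cutoff favoured calls in this direction. PDGFRB (limma adjusted p = 0.0823) and THY1, which reached the cutoff on every array, were not called. The number of arrays limits the precision, and in bulk RNA fewer cells with a transcript and less transcript per cell cannot be told apart.

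Of the 41 collagen genes, 18 were kept and 23 were not. The kept genes comprised 3 of 10 fibrillar, 5 of 9 network, 3 of 10 FACIT, 2 of 3 transmembrane and 3 of 5 microfibrillar genes, the anchoring fibril gene COL7A1 and the multiplexin gene COL18A1. The 23 others, among them COL1A2, COL2A1, COL4A3, COL4A4, COL5A2, COL14A1 and COL15A1, had signals of 3.32 to 4.46. COL20A1, with a mean of 4.07, lay just inside the cutoff and COL5A2, with a mean of 4.03, just outside it. At or above the cutoff stood 18 genes on the induced and 22 on the control SUM159 array, and 17 on each MDA-MB-231 array. Low signals were slightly lower on the induced SUM159 array in general: genes below the cutoff had a median induced minus control difference of -0.06, and the 23 collagen genes one of -0.12. The larger number on the SUM159 control array moves with this shift, and its part in the count was not tested. COL3A1, COL17A1 and COL26A1 had no probeset with a single symbol and are not analysed here.

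**Figure D1:**
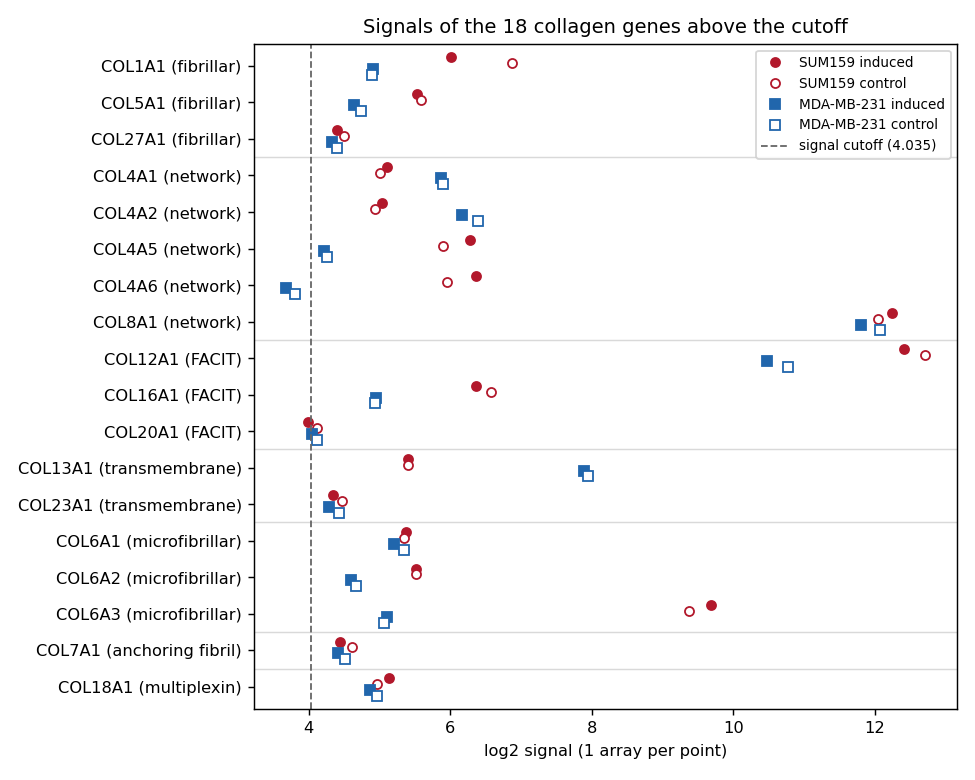
Log2 signal of the 18 kept collagen genes, grouped by class, with 1 point per array (filled, induced; open, control; circles, SUM159; squares, MDA-MB-231) and the signal cutoff of 4.035 as a dashed line. COL12A1 and COL8A1 lie above 10 on all arrays, COL6A3 is above 9 only on the SUM159 arrays, and COL4A6 is below the cutoff only on the MDA-MB-231 arrays.

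The lines differed widely in their collagens. Of the 18 kept genes, 8 were higher in SUM159 than in MDA-MB-231 by 1.5-fold or more (0.585 log2 units) in both states, and 3 were lower. Across all kept genes 16.3% were higher and 18.9% lower by the same rule. The higher genes were COL1A1, COL4A5, COL4A6, COL5A1, COL6A2, COL6A3, COL12A1 and COL16A1, and the lower ones COL4A1, COL4A2 and COL13A1. With limma over all 4 arrays and the treatment state as a block, the same 8 and 3 genes passed an adjusted p of 0.05, against 20.8% of all kept genes called higher and 23.8% lower. Adjusted p-values of these 11 lay between 0.00168 and 0.0186, and those of the other 7 between 0.384 and 0.858. That fit has 1 residual degree of freedom, namely how far the lines differ in their response to induction, so these p-values measure no spread between cultures. Median SUM159 minus MDA-MB-231 differences of the 18 genes were 0.35 in the induced and 0.10 in the control state, beside -0.02 and 0.01 over all kept genes. COL4A6 passed the signal cutoff only through SUM159, while the other higher genes and the 3 lower ones reached it on all 4 arrays. Whether the family is set apart from other genes was not tested, so the counts over kept genes do not show that it is.

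Among the microfibrillar genes, COL6A3 showed the widest difference of the family. COL6A3 encodes the large alpha 3 chain of type VI collagen. Its signal was 9.69 in induced and 9.38 in control SUM159 cells, against 5.10 in induced and 5.06 in control MDA-MB-231 cells. The SUM159 arrays were thus far above the MDA-MB-231 arrays in both states, by 4.59 with induction and 4.32 without. The limma difference was 4.46 ± 0.13 (SE, 2 arrays per line), a linear ratio of 21.9, with an adjusted p of 0.00168. By its smaller difference of the 2 states COL6A3 ranked 83rd from the top of 14418 kept genes.
The chains that assemble with it had smaller differences. COL6A2 had 5.52 in induced and 5.51 in control SUM159 cells, against 4.59 in induced and 4.66 in control MDA-MB-231 cells. It was higher by 0.93 and 0.85 in the induced and control states, with a limma adjusted p of 0.0111. COL6A1, its neighbour on the same chromosome, had 5.38 and 5.34 in induced and control SUM159 cells and 5.20 and 5.35 in induced and control MDA-MB-231 cells. COL6A1 did not pass the test, with a limma difference of 0.09 ± 0.13 (adjusted p = 0.628). COL6A5 and COL6A6, alternative type VI chains, lay below the cutoff on every array.

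Type IV collagen differed in opposite directions by pair. COL4A1 and COL4A2 encode the chains of the type IV trimer found in nearly all basement membranes, and both were lower in SUM159. COL4A1 had 5.10 in induced and 5.01 in control SUM159 cells, against 5.87 in induced and 5.90 in control MDA-MB-231 cells. COL4A2 had 5.03 and 4.93 in induced and control SUM159 cells, against 6.16 and 6.39 in induced and control MDA-MB-231 cells. Neither gene's arrays overlapped between the lines, though with 2 arrays per line this is a weak mark. The share of all kept genes without overlap was not taken. The limma differences were -0.83 ± 0.12 for COL4A1 (adjusted p = 0.0134) and -1.30 ± 0.14 for COL4A2 (adjusted p = 0.00807).
COL4A5 and COL4A6 encode chains of more restricted basement membranes, and both were higher in SUM159. COL4A5 had 6.28 in induced and 5.90 in control SUM159 cells, against 4.22 in induced and 4.25 in control MDA-MB-231 cells. COL4A6 had 6.36 and 5.95 in induced and control SUM159 cells, against 3.68 and 3.81 in induced and control MDA-MB-231 cells, where it lay below the cutoff, so that its difference may be understated. Again the arrays of the lines did not overlap, and within SUM159 the induced array was the higher one for both genes. The limma differences were 1.86 ± 0.16 (adjusted p = 0.0052) for COL4A5 and 2.41 ± 0.18 (adjusted p = 0.00446) for COL4A6. As COL4A6 was kept only through SUM159, the cutoff favoured its call in this direction. The remaining head-to-head genes, COL4A3 and COL4A4, whose chains serve kidney, lung and ear basement membranes together with that of COL4A5, lay between 3.55 and 3.72 on the 4 arrays, below the cutoff.
Other network genes behaved differently. COL8A1, a chain of the type VIII collagen of vessel walls and the cornea, had 12.24 in induced and 12.05 in control SUM159 cells, and 11.81 in induced and 12.07 in control MDA-MB-231 cells. The lines overlapped, and its limma difference of 0.21 ± 0.17 did not pass (adjusted p = 0.384). COL8A2 and the growth plate gene COL10A1 were below the cutoff throughout.

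**Figure D2:**
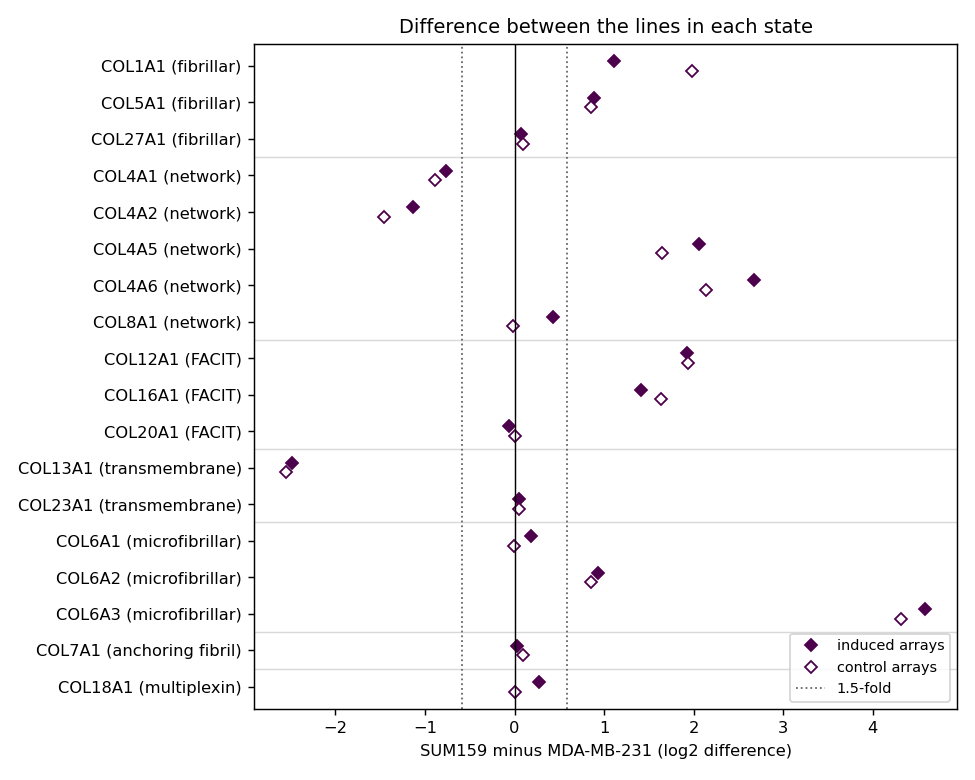
SUM159 minus MDA-MB-231 log2 difference of the 18 kept collagen genes in the induced (filled) and control (open) arrays, with 1 array per line and state and dotted lines at 1.5-fold. COL6A3 lies at 4.59 and 4.32, COL4A5 and COL4A6 lie to the right, and COL4A1, COL4A2 and COL13A1 lie to the left in both states.

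Fibrillar genes with a signal were few. COL1A1 encodes the main chain of type I collagen, the chief protein of connective tissue fibrils. It had 6.01 in induced and 6.87 in control SUM159 cells, against 4.90 in induced and 4.89 in control MDA-MB-231 cells. The SUM159 arrays lay above those of MDA-MB-231, by 1.11 with induction and 1.98 without, and the limma adjusted p was 0.0186. COL1A2, whose chain joins that of COL1A1 in the usual type I trimer, lay between 3.57 and 3.80 on the 4 arrays, below the cutoff. Its SUM159 minus MDA-MB-231 differences were 0.11 in the induced and 0.23 in the control state.
COL5A1 encodes a chain of type V collagen, which regulates fibril diameter. Its signals were 5.53 and 5.59 in induced and control SUM159 cells, against 4.64 and 4.74 in induced and control MDA-MB-231 cells. The limma difference was 0.87 ± 0.12 (adjusted p = 0.0113). COL5A2, its partner, had 4.23 in induced and 4.46 in control SUM159 cells, against 3.73 in induced and 3.71 in control MDA-MB-231 cells, and was at or above the cutoff only in SUM159. It was not kept and so was not tested with the cutoff used here. Under quantile normalization and with no signal cutoff it was tested, and limma then called COL5A2 as a ninth gene higher in SUM159 (adjusted p = 0.0233 and 0.0482, differences of 0.60 and 0.62). COL27A1, a fibrillar gene of cartilage, was near the cutoff, between 4.33 and 4.50, with a limma adjusted p of 0.598 between the lines. A second probeset of COL27A1 read 3.16 to 3.41. The 7 probesets of COL11A2, most of them on alternative versions of the same chromosome region, read 3.85 to 4.07 and are not separate measurements of it.

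Of the FACIT genes, COL12A1 encodes a large chain that coats type I fibrils. COL12A1 had 12.41 in induced and 12.72 in control SUM159 cells, against 10.48 in induced and 10.78 in control MDA-MB-231 cells. It was higher by 1.93 and 1.94 in the induced and control states, and by a limma difference of 1.94 ± 0.11 (adjusted p = 0.00322). COL16A1, another fibril-associated chain, had 6.36 and 6.57 in induced and control SUM159 cells, against 4.95 and 4.93 in induced and control MDA-MB-231 cells. It was higher in SUM159 by 1.41 and 1.64, with a limma adjusted p of 0.0052. COL20A1 read 3.99 to 4.12 and did not pass. The other 7 FACIT genes, with the type IX chains of cartilage among them, were below the cutoff in their mean.
COL13A1 encodes a transmembrane collagen known from the neuromuscular junction and from cell adhesion sites. Its signals were 5.40 in both induced and control SUM159 cells, against 7.89 in induced and 7.95 in control MDA-MB-231 cells. This was the widest difference toward MDA-MB-231 in the family, at -2.49 and -2.55 in the induced and control states, with a limma difference of -2.52 ± 0.12 (adjusted p = 0.0024). COL23A1, also transmembrane, read 4.29 to 4.47 and did not pass (limma adjusted p = 0.761). COL7A1, which anchors the basement membrane of skin, read 4.41 to 4.61 and did not pass either (limma adjusted p = 0.689). COL18A1, whose cleavage gives endostatin, had 5.14 and 4.97 in induced and control SUM159 cells and 4.87 and 4.97 in induced and control MDA-MB-231 cells (limma adjusted p = 0.477).

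Induced and control cells of a line differed little in their collagen signals. In SUM159, 0 of the 18 kept genes reached 1.5-fold higher with induction and 1 was lower, against 3.95% of all kept genes higher and 3% lower. In MDA-MB-231 0 were higher and 0 lower, against 1.69% and 0.784% of all kept genes. With 1 array per state there is no test within a line. Over both lines, limma with the line as a block called 0 of the 18 genes, and it called 0% of all kept genes higher and 0% lower. MIR100 itself, a kept gene higher by 11.62 (SUM159) and 9.18 (MDA-MB-231) with induction, was not called either. The fit, with 1 residual degree of freedom, could thus miss large differences, and its 0 calls do not show that collagens were unchanged. The lowest adjusted p among the 18 was 0.918, and 0 of the 18 had an unadjusted p under 0.05, against 373 higher and 183 lower of the 14418 genes. The 18 genes had median induced minus control differences of 0.00 (SUM159) and -0.08 (MDA-MB-231), beside 0.00 and 0.01 over all kept genes. For scale, the differences of probesets below the cutoff spread by 0.19 (SUM159) and 0.18 (MDA-MB-231), given as the SD that the median absolute deviation implies.

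The gene past 1.5-fold was COL1A1, whose signals in SUM159 given above differ by -0.86, a linear ratio of 1.82 in favour of the control cells. In MDA-MB-231 its induced and control signals differed by 0.01. The difference between these responses, -0.87, was not tested. Of the 6 fibroblast markers, DCN differed most in SUM159, by -0.47, with 4.37 in induced and 4.84 in control cells. The others differed by -0.23 (LUM), -0.09 (PDGFRB), -0.08 (PDGFRA), -0.07 (FAP) and 0.16 (THY1), so the list did not move as 1. The part of these markers in the COL1A1 result was not tested. Over both lines COL1A1 had a limma difference of -0.43 ± 0.26 (SE, 2 lines), which did not pass (adjusted p = 0.918).
Next in SUM159 came the head-to-head genes COL4A6 and COL4A5, with induced minus control differences of 0.41 and 0.38. In MDA-MB-231, where both had signals near or below the cutoff, the differences were -0.13 and -0.03, so a fall there could hardly have been seen. COL6A3 had a SUM159 difference of 0.31 and an MDA-MB-231 difference of 0.04. COL12A1 had nearly equal differences in the lines, -0.31 (SUM159) and -0.30 (MDA-MB-231), and a limma difference of -0.31 ± 0.11, which did not pass (adjusted p = 0.918).
By class, the 3 FACIT genes lay between -0.31 and -0.13 in SUM159 and between -0.30 and 0.02 in MDA-MB-231. All 5 network genes had positive differences in SUM159, from 0.09 to 0.41, and negative ones in MDA-MB-231, from -0.26 to -0.03, of which 4 stayed below 0 after quantile normalization and 3 after centring the arrays, with the others at 0.00. None of these reached 1.5-fold, and in SUM159 those of COL4A1, COL4A2 and COL8A1 were no wider than the spread of the background probesets. In MDA-MB-231 those of COL4A1, COL4A5 and COL4A6 were within that spread of 0.18. Negative differences there were not particular to the network class, since 15 of the 18 kept collagen genes had them. Fibrillar genes other than COL1A1 stood at -0.06 and -0.10 in SUM159, and the microfibrillar genes between 0.01 and 0.31. In MDA-MB-231 the lowest differences were those of COL12A1 and COL8A1 (-0.26), and the highest was that of COL6A3.

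**Figure D3:**
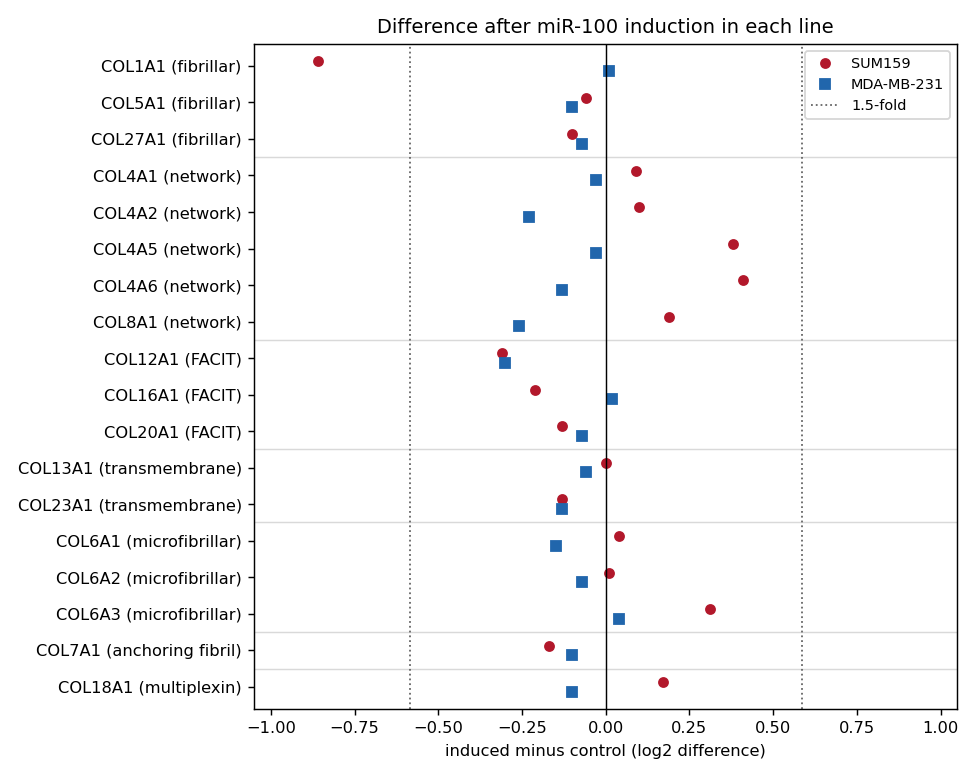
Induced minus control log2 difference of the 18 kept collagen genes in SUM159 (circles) and MDA-MB-231 (squares), with 1 array per state and dotted lines at 1.5-fold. COL1A1 in SUM159, at -0.86, is the only point past 1.5-fold, and COL12A1 has nearly the same value in both lines.

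The genes that make, process, bind and break down collagen were set beside the chains. Of 52 genes listed, 43 were kept, and in induced SUM159 cells 5 reached 1.5-fold higher and 4 reached it lower, against 3.95% and 3% of all kept genes, with a median difference of 0.02. In MDA-MB-231 0 of 43 were past 1.5-fold, against 1.69% higher and 0.784% lower of all kept genes, the median was -0.01 and the range -0.27 to 0.49. Limma over both lines called 0 of the 43 and gave 1 of them an unadjusted p under 0.05, against 373 higher and 183 lower of all 14418 kept genes, which is a share near the background.
The 9 genes past 1.5-fold in SUM159 came from several steps. PCOLCE, which speeds removal of the C-terminal propeptide, had 6.38 in induced and 7.12 in control SUM159 cells, a log2 difference of -0.74. LOX, which oxidises lysines for crosslinking, had 6.36 in induced and 7.82 in control SUM159 cells, at -1.46, while its relatives LOXL1 (0.83) and LOXL2 (0.66) were higher. PLOD2, the lysyl hydroxylase of the telopeptides, had 6.11 in induced and 7.00 in control SUM159 cells, at -0.89. The prolyl 3-hydroxylase gene P3H1 (0.70), the collagen-binding integrin gene ITGA2 (0.62) and the gelatinase gene MMP2 (1.36) were higher. DDR2, a receptor for fibrillar collagen, had 4.52 in induced and 5.55 in control SUM159 cells, at -1.03.
In SUM159 COL1A1 was thus lower beside PCOLCE, PLOD2, LOX and DDR2, while LOXL1, LOXL2, P3H1, ITGA2 and MMP2 were higher. In MDA-MB-231 the differences of these genes lay between -0.24 and 0.49, and LOX, at 0.49, was the highest of the 43.

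Between the lines, 19 of the 43 genes were past 1.5-fold higher in SUM159 in both states and 8 lower, and limma called 21 higher and 10 lower, against 16.3% and 18.9% of all kept genes by fold and 20.8% and 23.8% by limma. Of the 43, TLL1, DCN and ADAMTS14 passed the signal cutoff only through SUM159, and MMP1 and ADAMTS3 only through MDA-MB-231. Whether the list is set apart from other genes was not tested, so these counts do not show that it is. Among the other 38 genes, 17 were higher and 7 lower by fold, and limma called 19 higher and 8 lower. The shares over all kept genes were taken without such an exclusion. The median SUM159 minus MDA-MB-231 difference was 0.55 in the induced and 0.57 in the control state, beside -0.02 and 0.01 over all kept genes.
FKBP10, an endoplasmic reticulum prolyl isomerase that acts on type I procollagen, had 12.93 in induced and 12.88 in control SUM159 cells, against 4.73 and 4.84 in induced and control MDA-MB-231 cells. The limma difference was 8.12 ± 0.12 (adjusted p = 0.00115). MMP2 had 12.26 in induced and 10.90 in control SUM159 cells, against 3.93 and 4.10 in induced and control MDA-MB-231 cells, where it lay around the cutoff (limma adjusted p = 0.00297). TLL1, a procollagen C-proteinase, ITGA11 and ITGA10, collagen-binding integrin genes, and LOXL1 were the next highest, with log2 differences of 2.36, 1.81, 1.79 and 1.61 in the state where they differed less. The TLL1 value is set against MDA-MB-231 signals of 3.83 and 3.73, below the cutoff, and so may understate the difference.
MMP14, the membrane collagenase that also activates the product of MMP2, ran the other way, with 4.24 in induced and 4.22 in control SUM159 cells, against 12.39 and 12.53 in induced and control MDA-MB-231 cells. Its limma difference was -8.23 ± 0.12 (adjusted p = 0.00115). PLOD2 had 6.11 and 7.00 in induced and control SUM159 cells, against 13.47 and 13.19 in induced and control MDA-MB-231 cells (limma difference -6.78 ± 0.33, adjusted p = 0.00258). LOXL4 (-4.45), the interstitial collagenase gene MMP1 (-2.91), ITGA2 (-1.97) and LOX (-1.80) were also lower in SUM159, as judged by the smaller difference of the 2 states. The MMP1 value may likewise understate the size of the difference, since its SUM159 signals of 3.76 and 3.82 were below the cutoff. Of the crosslinking and collagenolytic genes, LOXL1 and MMP2 were thus higher in SUM159, and LOX, LOXL4, MMP1 and MMP14 were lower there.
By step, 5 of 7 kept propeptide genes and 4 of 5 folding and export genes were higher by limma in SUM159, against 20.8% of all kept genes, among them the collagen chaperone gene SERPINH1 (1.13 ± 0.13, adjusted p = 0.00814) and the propeptidase genes BMP1 and ADAMTS2. Of the propeptide genes 1, ADAMTS3, was lower by limma, against 23.8% of all kept genes. Once the 3 that passed the cutoff through a single line (TLL1, ADAMTS3 and ADAMTS14) were left out, 4 of 4 were higher. The share of all kept genes was taken without leaving out such genes, so the 4 of 4 has no like background. Of 9 kept prolyl hydroxylation genes limma called 4 higher and 1 lower, against 20.8% and 23.8% of all kept genes. The higher ones were CRTAP (1.54 ± 0.12, limma adjusted p = 0.00444), P3H4 (1.31 ± 0.14, 0.00743), P3H3 (0.65 ± 0.12, 0.0226) and PPIB (0.56 ± 0.11, 0.0295). PPIB was under 1.5-fold. P3H2 was the lower one (-0.84 ± 0.15, limma adjusted p = 0.0225).

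**Figure D4:**
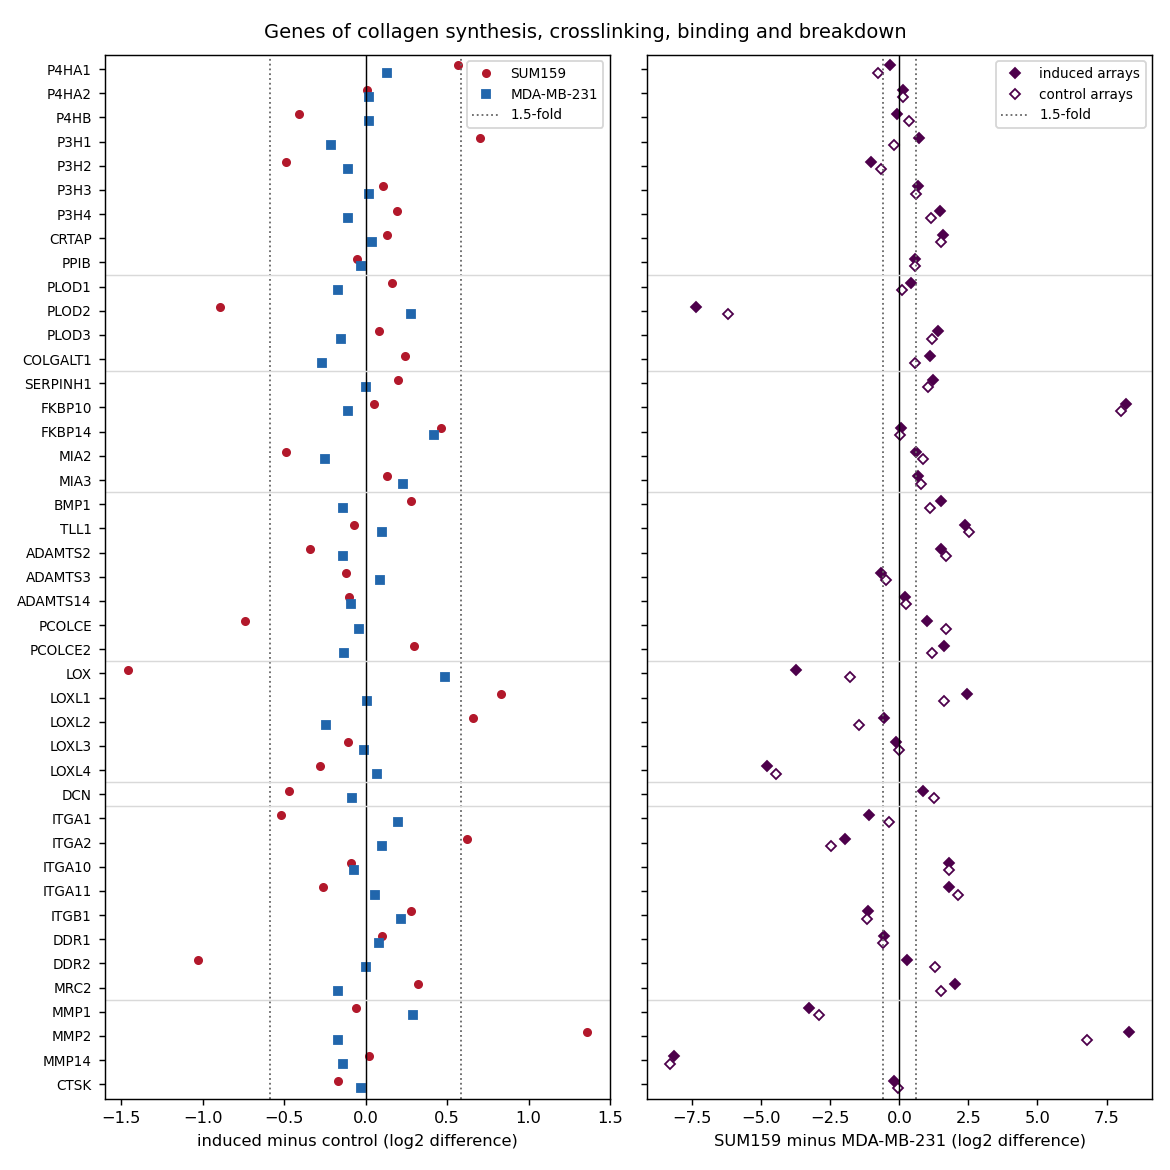
Log2 differences of the 43 kept genes that synthesise, process, bind or degrade collagen, in 8 functional groups from prolyl hydroxylation (top) to collagenolysis (bottom); left, induced minus control in SUM159 (circles) and MDA-MB-231 (squares); right, SUM159 minus MDA-MB-231 in induced (filled) and control (open) arrays. LOX and MMP2 have the widest induction differences, -1.46 and 1.36 in SUM159, and FKBP10, MMP2, MMP14 and PLOD2 lie past 6 log2 units between the lines.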

How the data were processed

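Gene expression was measured on 4 Affymetrix arrays from Trizol RNA and biotin-labelled cDNA, per the labels' protocols. The values deposited by the authors are log2 signals of 70523 probesets, with array medians of 4.00 to 4.07. Per the submitters' processing notes, the software was Transcriptome Analysis Console and Affymetrix Expression Console; summarisation, normalization and build were not given in the sources used. A shift shared by most genes of an array could therefore have been removed before deposit. No further scaling was applied.

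Probesets with 1 symbol in the platform annotation (23781) were used, and all 41 collagen symbols matched RefSeq (GRCh38.p14). Log2 differences were taken between arrays. Limma 3.58.1 (lmFit, eBayes, R 4.3.3) was run over all 14418 kept genes with Benjamini-Hochberg adjustment, two-sided. A run on simulated data, with independent noise of the same size for every gene, checked the code and not how well the model suits these arrays. Nothing in the labels says that arrays came from separate cultures. The collagen genes, classes and pathway list were chosen with earlier results of these data known. Text names every kept collagen gene, pathway genes past 1.5-fold with induction, and the 6 widest line differences per direction; other genes named serve as examples or checks. Quantile normalization, median centring, other signal cutoffs, probeset averaging, a fold of 2, and limma without the block or with a trend were tried as alternatives.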

Additional observations from a re-analysis of the deposited data

Results flagged for a closer look

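In 6 of the 43 kept genes of the collagen pathway list, induced and control signals differed in opposite directions in the lines. Each of these differences was wider than the spread of background probesets. As each line has 1 array per state, these differences were not tested. The SUM159 difference minus the MDA-MB-231 difference was -1.95 for LOX (-1.46 and 0.49), -1.17 for PLOD2 (-0.89 and 0.28) and -0.72 for ITGA1 (-0.52 and 0.20). It was 0.91 for P3H1 (0.70 and -0.21), 0.90 for LOXL2 (0.66 and -0.24) and 0.51 for COLGALT1 (0.24 and -0.27). No collagen gene met this criterion. The share of all kept genes that met it was not taken, so these counts set neither the list nor the collagens apart.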

How the results depend on the processing

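The counts of collagen genes and of limma calls were compared under 92 combinations of count and alternative setting, and 86 stayed within 1.5 times the value given above. A cutoff at the 75th percentile of signal left 4 collagen genes, so fewer could be counted. Of these, 0 were past 1.5-fold lower in induced SUM159 cells. Between the lines 2 were higher and 1 lower in SUM159, both by fold and by limma. Over all genes kept at that cutoff limma called 2328 higher and 2656 lower. With a fold threshold of 2, 0 collagen genes were lower in induced SUM159 cells. Shares of all kept genes by fold were not taken under these 2 settings. Of 243 single-gene values, 243 kept their call or moved by less than the background spread, and 0 of those past 1.5-fold or called by limma changed direction. The induction fit pairs the arrays of a line through its block. Without the block limma still called 0 collagen genes with induction and 8 higher and 3 lower between the lines. Over all kept genes it then called 0 higher and 0 lower with induction, and 3363 higher and 3830 lower between the lines. The single array per group limits every induction value, and signals near the cutoff bound low genes poorly.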
